A study of Rattus norvegicus with 11 samples.

Results

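The miR-200 family is a set of 5 microRNAs (miRNAs), named rno-miR-200a, rno-miR-200b, rno-miR-429, rno-miR-200c and rno-miR-141 on the arrays (rno stands for rat), chosen here by name and without their star (passenger) strands. They were 5 of the 340 miRNA names that both array designs of the study carried. All 5 were detected on all 11 arrays, so all 5 were among the 152 miRNAs tested, which had to be detected on at least 5 arrays. A miRNA is a short RNA that pairs with messenger RNAs, mainly through the bases 2 to 8 from its 5′ end, called the seed, and lowers their output. The miR-200 family is known for holding epithelial cells in their epithelial state, by lowering the transcription factors Zeb1 and Zeb2, which silence E-cadherin. Pancreatic beta cells arise from an epithelium and make these miRNAs, and in mice the family has been linked to beta-cell survival under stress.

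The arrays measured total RNA of pancreatic islets, the hormone-secreting cell clusters of the pancreas, from 13-week-old female Sprague Dawley rats. The 5 HFD samples came from daughters of males fed commercial pellets with 43% fat, and the 6 Control samples from daughters of males fed laboratory chow with 9% fat. In both groups the fathers were mated at 15 weeks with chow-fed females, and the daughters were weaned onto chow at 3 weeks and went through glucose tests at 6 and 12 weeks and an insulin test at 11 weeks. Each sample has a number of its own, but litters and fathers are not given, so the p-values measure the spread between these samples. A first array design held Control 602, 613, 615 and 639 and HFD 603, 607, 644 and 653, and a second held Control 635 and 652 and HFD 640. Each design was 1 slide scanned in 1 session, and both held both groups.

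The family lies at a pair of genomic clusters, given here from RefSeq on GRCr8, while the array files name the older build rn4 and hold no positions. The genes of miR-200b, miR-200a and miR-429 lie on the minus strand within 1908 bases of chromosome 5 (chr5:171929682-171931589), overlapping the span of the gene Ttll10. Those of miR-200c and miR-141 lie on the minus strand within 509 bases of chromosome 4 (chr4:159209525-159210033), between the protein-coding genes Phb2 and Ptpn6. Members of one cluster are known to be cut from a common primary transcript. The seeds divide the family differently: miR-200b, miR-200c and miR-429 have one seed, and miR-200a and miR-141 have the other, so each cluster carries both seeds. The mature sequences of 2 of the 5 members, 1 of each seed, were matched in RefSeq's table and show the base that separates the seeds. They are written 5′ to 3′ with the seed in capitals; miR-200c spans chr4:159209969-159209989 and miR-141 chr4:159209540-159209561, both on the minus strand of GRCr8.
rno-miR-200c-3p: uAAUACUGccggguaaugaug
rno-miR-141-3p: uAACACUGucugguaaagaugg
Over the 21 positions that both have, counted from the 5′ end, they differ at 4, written with the miR-200c base first: U4C, C9U, G11U and U17A. Only U4C lies in the seed. The array names carry no arm, and the unstarred names were taken as the 3p strands.

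To make arrays comparable, signals were divided by the 75th percentile of the 85 miRNAs that no array missed, which on all 8 arrays of the first design was the signal of miR-26b. Values there are therefore ratios to miR-26b, and all values are given as this scaled signal or as its log2. Levels of different miRNAs were not set against each other, because probes differ in how brightly they read. No spot was saturated. On the first design 105 to 157 of the shared names were detected, fewest on HFD 653, where the negative control spots also had the widest SD, 12.9 against 2.26 to 3.65 on the other 7 arrays. As a check of the tissue, the endocrine islet miRNAs miR-375, miR-7a and miR-7b were measured on all arrays, with a summed signal of 11423 to 16200 in Control and 12005 to 14764 in HFD on that design. Their differences between diets were -0.031, 0.050 and 0.064 (log2), and none passed. The liver miRNA miR-122, the muscle miRNAs miR-1 and miR-133a and the red-cell miRNA miR-451 read at the floor of 11.3 on its 8 arrays. On the second design miR-451 was detected on all 3 arrays, at 55.8 and 23.7 in Control and 29.0 in HFD.

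None of the 5 family members differed between daughters of HFD and Control fathers. The differences lay between -0.054 (miR-200a) and 0.056 (miR-141) on the log2 scale, or from 0.963-fold to 1.040-fold. No member passed the test (limma with array design as a block, Benjamini-Hochberg adjusted p of 0.987 for 4 members and 0.999 for miR-200b), and 0% of the 152 miRNAs did, by limma or by exact permutation within design. At an unadjusted p under 0.05 limma called 3 of the 152, or 1.97%, and none was a member. The 95% intervals left room for log2 differences of up to 0.41 for miR-141 and up to 0.29 in size for the other members.

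In the chromosome 5 cluster, miR-200a, which carries the seed it shares with miR-141, had scaled signals of 570.3, 720.3, 753 and 661 on Control 602, 613, 615 and 639. On HFD 603, 607, 644 and 653 it had 576, 675, 604 and 609.9. The groups overlapped: Control held the lowest array of the 8 and also the 2 highest. On the second design miR-200a read 1143 and 1157 in Control and 1292 in HFD. The difference, HFD minus Control over both designs, was -0.054 ± 0.10 (log2, SE, n = 6 Control and 5 HFD; limma p = 0.613, exact permutation within design over 210 splits, 2-sided, p = 0.538). It was -0.13 on the first design and 0.17 on the second.

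For miR-200b, which shares its seed with miR-200c and miR-429, Control 602, 613, 615 and 639 read 626, 583, 615 and 482, and HFD 603, 607, 644 and 653 read 561, 557, 563 and 620.3. The HFD arrays lay inside the Control range, and 3 of them were nearly equal. The second design gave 709 and 725 in Control and 712 in HFD. The difference was 0.000072 ± 0.093 (log2, SE; limma p = 0.999, exact permutation p = 1), with a 95% interval of -0.21 to 0.21.

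For miR-429, Control 602, 613, 615 and 639 read 591, 623, 674 and 629, and HFD 603, 607, 644 and 653 read 556, 666, 659 and 771. Here the HFD arrays spread wider than Control and held both the lowest and the highest value. The second design gave 473 and 515 in Control and 501 in HFD. The difference was 0.055 ± 0.099 (log2, SE; limma p = 0.590, exact permutation p = 0.524).

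In the chromosome 4 cluster, miR-200c read 6909, 6973, 8106 and 6899 on Control 602, 613, 615 and 639, and 6153, 6907, 7217 and 7760.1 on HFD 603, 607, 644 and 653. Control 615 was the highest and HFD 603 the lowest, and the other arrays of both groups lay between them. The second design reads miR-200c with other probes than the first and gave 1206 and 1174 in Control and 1336 in HFD, a change of scale that the block takes up. The difference was 0.0083 ± 0.096 (log2, SE; limma p = 0.933, exact permutation p = 0.895).

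The most variable member was miR-141, with 1785, 2917, 3212 and 2374 on Control 602, 613, 615 and 639. It read 2326, 2501, 2694 and 2244 on HFD 603, 607, 644 and 653. Control held both the lowest and the 2 highest arrays of the first design, and the HFD arrays lay inside that range. The second design gave 2742 and 2860.1 in Control and 3585 in HFD. The difference was 0.056 ± 0.16 (log2, SE; limma p = 0.728, exact permutation p = 0.738), with -0.044 on the first design and 0.36 on the second. The difference on the second design minus that on the first was 0.40 for miR-141, 0.30 for miR-200a and 0.21 for miR-200c (log2). It was -0.014 for miR-200b and -0.046 for miR-429. The second design held 1 HFD array, so whether the effect of diet differed between designs cannot be told.

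**Figure D1:**
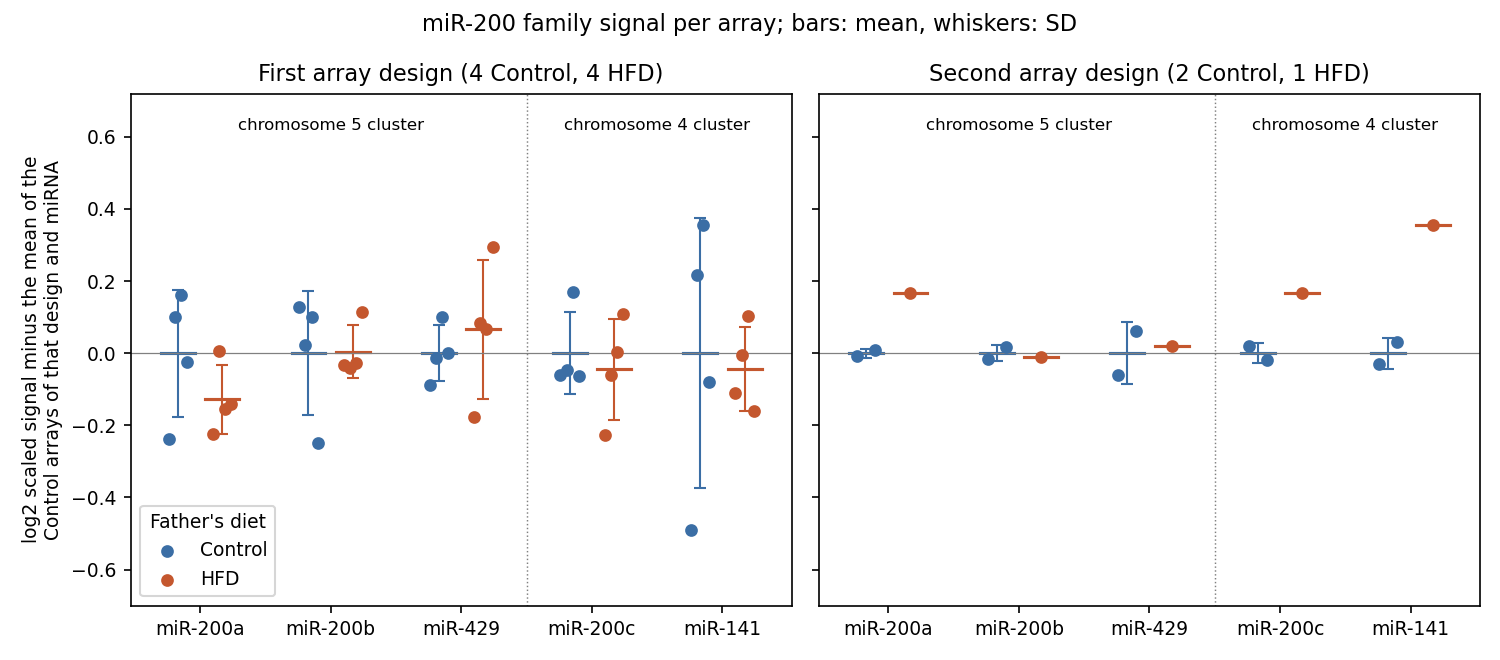
Scaled signal of each family member on each array, as the log2 difference from the mean of the Control arrays of the same design, with points for arrays, bars for group means and whiskers for SD. On the first design the Control and HFD points overlap for all 5 members, and miR-141 in Control has the widest whisker (SD 0.37, n = 4).

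On the first design no member had groups that did not overlap, while 1.32% of the 152 miRNAs did. All 5 members varied less than the median of the 152 tested miRNAs. Against the 85 detected on all arrays, only miR-141 among them varied more than the median. The median SD of the 5 after removing diet and design was 0.13 on the log2 scale, against 0.31 over all 152 tested and 0.21 over the 85 detected on all arrays. It was lowest for miR-200b (0.12) and highest for miR-141 (0.26). Both of the larger sets also hold dim miRNAs, and no set of like signal was compared. Some other miRNAs of high signal varied as little, such as let-7a (0.12) and miR-99a (0.13). Others varied more, such as miR-7a (0.16), miR-375 (0.19) and miR-22 (0.23). A low spread was thus not particular to the family. The median difference of the members was 0.0083 and 4 of 5 lay above 0, against a median of 0.066 and 108 of 152 above 0 for all tested miRNAs.

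**Figure D2:**
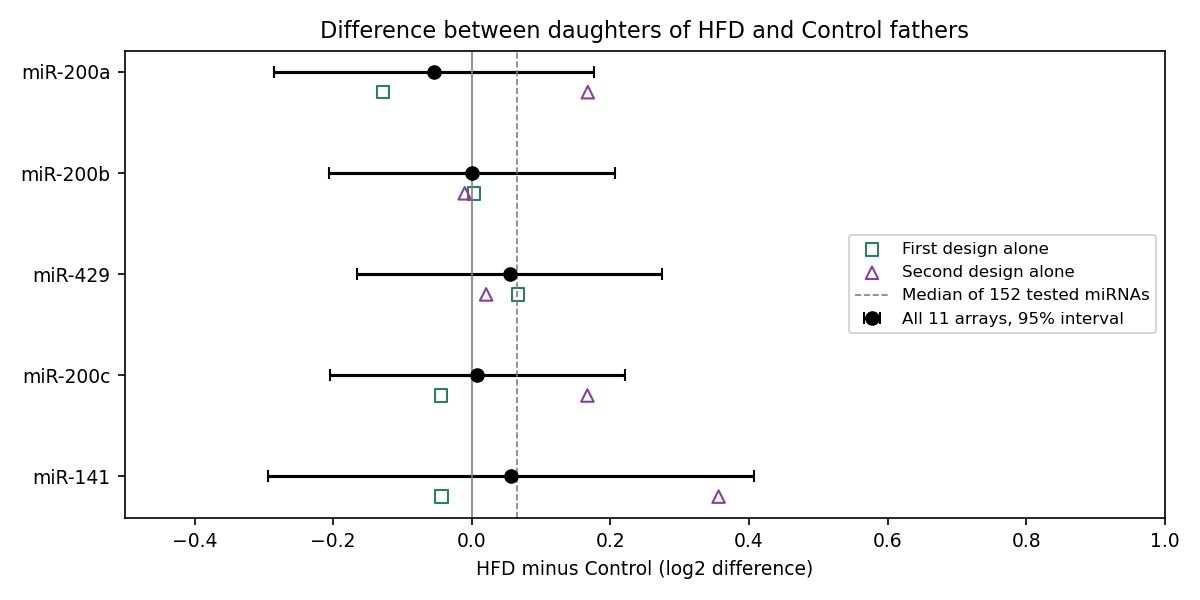
HFD minus Control difference of each member (log2), as the estimate over all 11 arrays with its 95% interval (black) and on each design alone (squares and triangles). All 5 intervals include 0, and the dashed line marks 0.066, the median of the 152 tested miRNAs.

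The 2 genomic clusters did not part between the diets either. The mean of the chromosome 5 members differed by 0.00029 ± 0.054 (log2, SE) and the mean of the chromosome 4 members by 0.032 ± 0.10. The cluster contrast, which is the first mean minus the second on each array, had a difference of -0.032 ± 0.074, with 0.025 on the first design and -0.20 on the second. Grouped by seed instead, the contrast of miR-200b, miR-200c and miR-429 against miR-200a and miR-141 differed by 0.020 ± 0.12. No p-value was computed for these means over members.

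Across arrays, the 2 pairs of members with the highest r shared a seed and lay in different clusters, an order that did not hold once slide columns were centred (values follow). Over the 8 arrays of the first design, miR-200a and miR-141 correlated at r = 0.81 (Spearman's rho 0.81, exact permutation over 40320 orders, 2-sided, p = 0.0113, adjusted 0.243 over 25 relations). The pair miR-429 and miR-200c had r = 0.81 (rho 0.71, exact permutation p = 0.0195, adjusted 0.243). None of the 25 relations, 10 between members and 15 between a member and a marker miRNA, passed after adjustment. Without the 2 arrays farthest from the median, r was 0.53 for the first pair and 0.60 for the second, with the slide rows centred it was 0.81 and 0.67, and with the slide columns centred 0.99 and 0.85.

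The other pairs correlated less. Within the chromosome 4 cluster, miR-200c and miR-141 had r = 0.41, and within the chromosome 5 cluster miR-200a had r = -0.076 with miR-200b and 0.29 with miR-429, while miR-200b and miR-429 had 0.26. Across clusters, the remaining pairs ran from -0.085 (miR-200b and miR-141) to 0.50 (miR-200a and miR-200c). The median r was 0.27 over the 4 pairs of the same cluster and 0.47 over the 6 of different clusters. By seed it was 0.63 over the 4 pairs of the same seed and 0.26 over the 6 of different seeds. All 3486 pairs of the 84 miRNAs that were detected on all arrays and varied had a median of 0.12. These correlations share the scaling and the arrays: with no scaling the 4 medians were 0.86, 0.92, 0.92 and 0.86, and that of all pairs was 0.67.

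**Figure D3:**
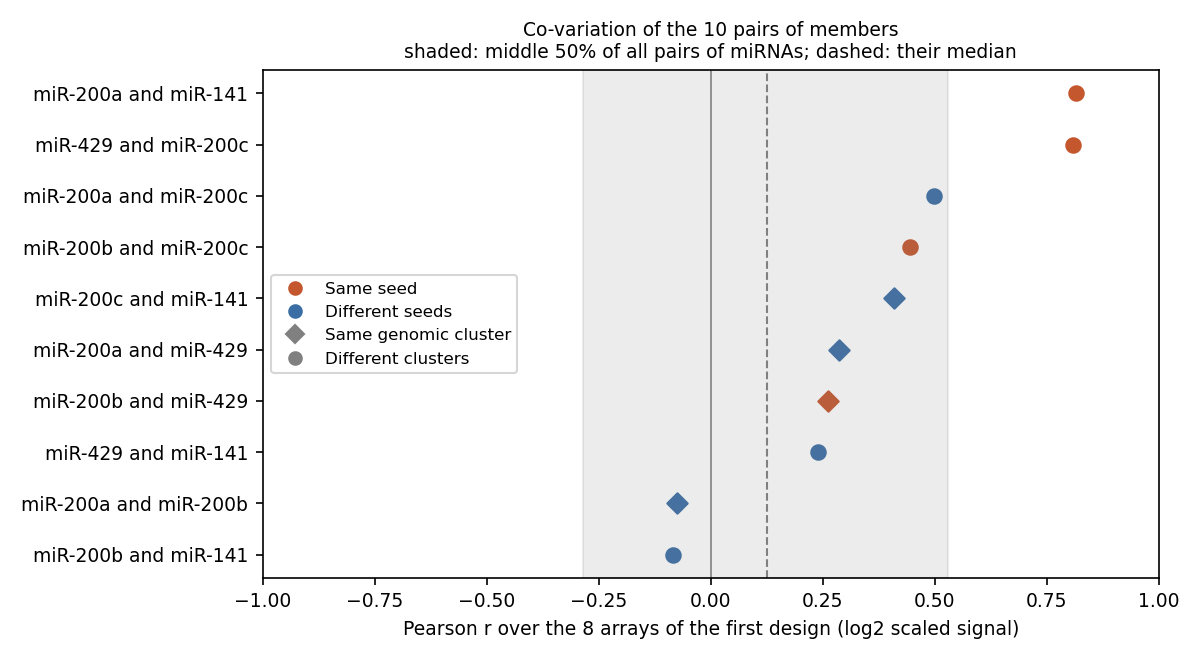
Pearson r of each of the 10 pairs of members over the 8 arrays of the first design, coloured by whether the pair shares a seed and shaped by whether it shares a genomic cluster; the shaded band holds the middle of all 3486 pairs of miRNAs, from -0.29 to 0.53. The pairs miR-200a with miR-141 and miR-429 with miR-200c lie to the right of the band.

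The division by seed moved with where an array sat on the slide. Slide row and column were read here from parts of the array barcode, and the labels do not name them. The 8 arrays of the first design lay in 2 rows and 4 columns, and the 2 arrays of a column held Control 602 and HFD 653, HFD 603 and 644, HFD 607 and Control 639, or Control 613 and 615. The seed contrast was 0.44 and 0.40 in column 1, 0.10 and 0.12 in column 2, 0.075 and 0.030 in column 3 and -0.089 and -0.054 in column 4. The 2 arrays of a column thus differed by at most 0.045, whatever their diets, while the 8 arrays spanned 0.53. Of the sum of squares of the seed contrast, 99.1% lay between columns, 6.70% between diets and 0.029% between rows. The shares of columns and diets overlap, since columns 2 and 4 each held 1 diet. Even without an effect of position, 4 columns hold on average a larger share than 2 rows or 2 diets. The same share between columns had a median of 42.3% over the log ratios of all 3486 pairs of miRNAs, of which 3 (0.086%) reached that of the seed contrast. Each log ratio holds only 2 miRNAs, while the seed contrast averages several on each side. The shares are therefore not like for like, and 0.086% does not tell how rare the seed contrast is. The slide column was examined after the data were seen.

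With slide columns centred, which leaves 1 difference from each of the 4 columns and is given as a description, the order of the pairs by seed turned round. The median r was then 0.53 over pairs of the same seed and 0.91 over pairs of different seeds, 0.61 over pairs of the same cluster and 0.89 over pairs of different clusters, and 0.21 over all 3486 pairs. The highest r was that of miR-429 and miR-141 (0.996), which have different seeds, followed by miR-200a and miR-141 (0.99), miR-200a and miR-429 (0.97) and miR-200a and miR-200c (0.93). Those of miR-200b with the other members were the lowest, from 0.20 to 0.33. In every column, the row 2 and row 1 arrays thus differed the same way in miR-200a, miR-429, miR-200c and miR-141.

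Among single members, 93.9% of the sum of squares of miR-200a lay between columns, 80.8% of that of miR-141, 76.3% of that of miR-200b, 36.9% of that of miR-200c and 18.5% of that of miR-429. The median of the 84 miRNAs was 45.2%. Both miR-200a and miR-141 were highest in column 4, with mean log2 signals of 9.52 and 11.58. In column 1 they averaged 9.20 and 10.97, the lowest of the columns for miR-141. The cluster contrast had 80.3% between columns (33.7% with quantile normalisation) and 19.0% between rows, and the difference of the row 2 array from the row 1 array lay between -0.12 and -0.068 in all 4 columns.

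**Figure D4:**
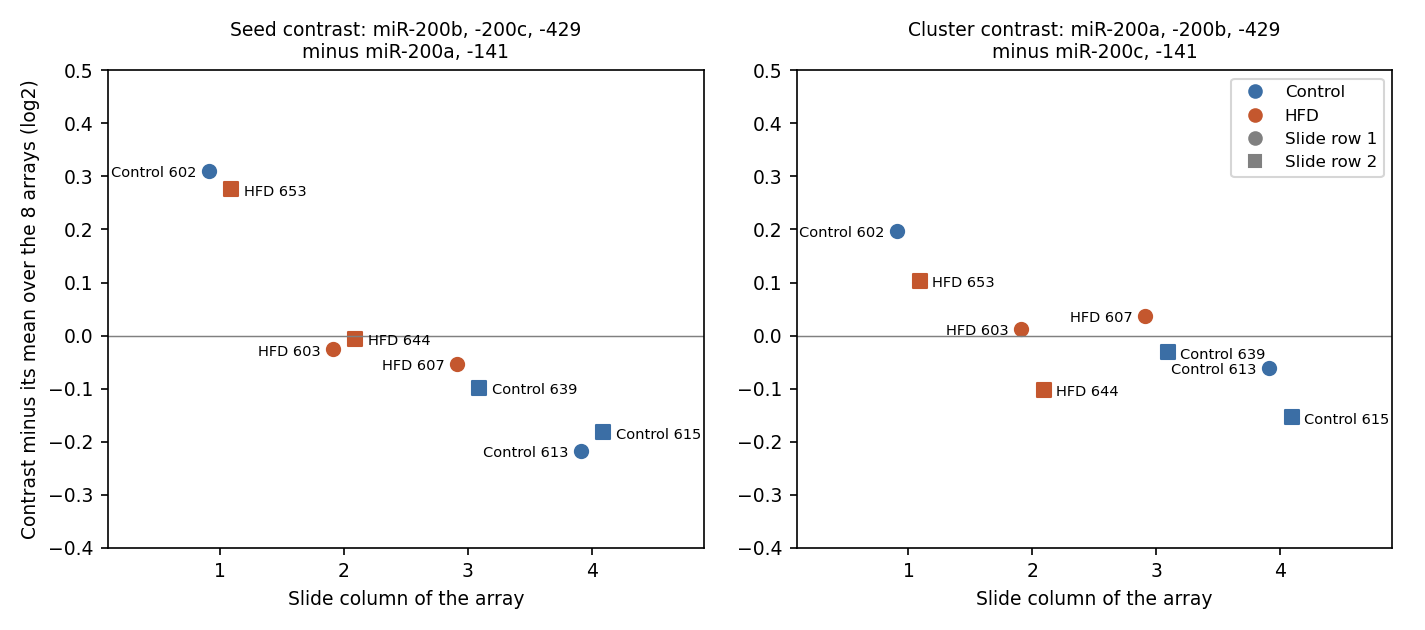
Seed contrast (left) and cluster contrast (right) of each first-design array, as log2 minus the mean of the 8 arrays, by slide column, with colour for diet and shape for slide row. The 2 arrays of each column lie within 0.045 of each other in the seed contrast and within 0.12 in the cluster contrast.

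Since columns 2 and 4 each held 1 diet, only columns 1 and 3 give a difference between diets within a column. In column 1, HFD 653 minus Control 602 was 0.097 for miR-200a, -0.014 for miR-200b, 0.38 for miR-429, 0.17 for miR-200c and 0.33 for miR-141. In column 3, HFD 607 minus Control 639 was 0.030, 0.21, 0.082, 0.0018 and 0.075 in the same order. With the slide column as a further block over all 11 arrays, the differences were 0.11 for miR-200a, 0.055 for miR-200b, 0.15 for miR-429, 0.12 for miR-200c and 0.26 for miR-141. None passed (limma, smallest adjusted p among members 0.574), and 0 of the 152 miRNAs did.

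The spots of single probes showed the columns as well. Each member has 2 probes of 10 spots each, and every spot was set against the median of its probe on that array. Over 99 spots of the family, the pattern correlated at r = 0.61 to 0.76 between the 2 arrays of a column (4 pairs) and at -0.35 to 0.35 between arrays of different columns (24 pairs). These are spots of shared probes, so r is given as a description. Column 1 also had the widest spread over spots: the median coefficient of variation (CV) of the members' probes was 24.4% on Control 602 and 22.4% on HFD 653, against 8.78% to 13.1% on the other 6 arrays. Over all 177 probes of the miRNAs detected on all arrays it was 24.2% and 23.5%, against 11.2% to 14.8%.

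The brighter miR-141 probe shows this spot by spot. On Control 602 its 10 spots ran from 451 to 1592, and on HFD 653 from 510.3 to 1666. The spot in row 64 and column 8 of the array read 42.0% and 44.8% of the median spot on these arrays, and 98.2% to 108% on the other 6. The error of a member's signal from the spread over its spots had a median of 0.022 (miR-200c) to 0.072 (miR-200a) on the log2 scale and reached 0.15 for miR-141 on Control 602. The SD between arrays of the same diet, pooled over both diets of the first design, was 0.28 for miR-141 and 0.13 to 0.15 for the other members.

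**Figure D5:**
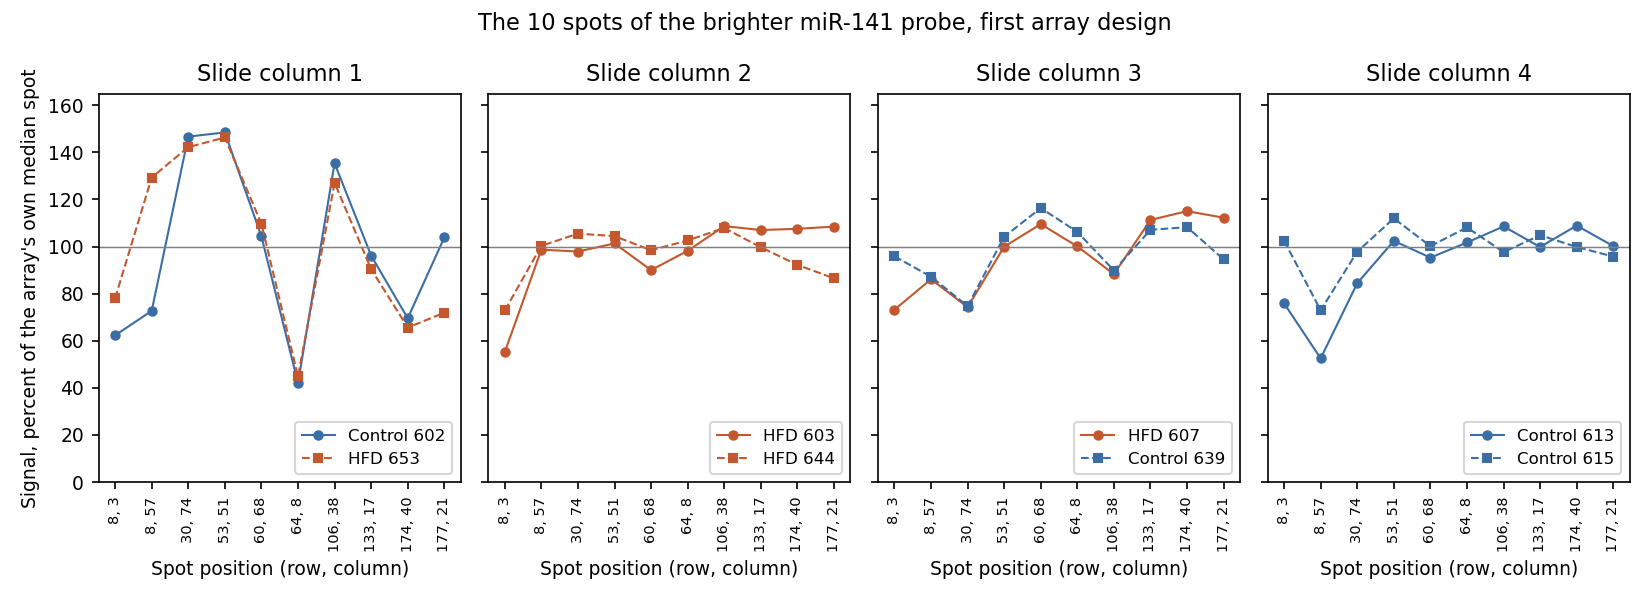
Signal of the 10 spots of the brighter miR-141 probe, as percent of the median spot on the same array, by spot position, with 1 panel per slide column and 2 arrays in each. The 2 arrays of column 1 rise and fall together, from 42.0% to 148% on Control 602 and from 44.8% to 146% on HFD 653.

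Without Control 602 and HFD 653, which leaves 6 arrays, the median r was 0.60 over pairs of the same seed and 0.68 over pairs of different seeds. It was 0.49 over pairs of the same cluster and 0.75 over pairs of different clusters. The pair miR-200b and miR-141 went from -0.085 to 0.76. Leaving out HFD 653 alone brought the median over different seeds to 0.60. Leaving out Control 615 alone brought it to 0.10, with 0.13 over the same cluster and 0.25 over different clusters.

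Single probes of the members also differed little between diets. On the first design their differences ranged from -0.16 (the brighter miR-200a probe) to 0.087 (the brighter miR-429 probe), and the 2 probes of miR-200b and of miR-429 had opposite signs. The 2 probes of miR-141 correlated over the 8 arrays (r = 0.91, exact permutation p = 0.00275, adjusted 0.0138 over 5 members; rho 0.86, adjusted 0.0536), with r = 0.74 without the 2 farthest arrays. Those of miR-429 had r = 0.26 (rho -0.024), which turned to -0.84 without the 2 farthest arrays, and its dimmer probe was well above background on 5 of 10 spots on HFD 653; the dimmer miR-200b probe was so on 0 of 10 there. The brighter probe supplied 80.4% of the signal of miR-200a on the first design and 60.9% on the second, 87.3% and 66.1% of that of miR-200b, 79.7% and 59.2% of that of miR-429, and 88.5% and 64.3% of that of miR-141. A summed signal therefore weights the probes differently on the 2 designs.

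Other miRNAs known from epithelia gave no called difference between diets. Of 10 listed, 7 were tested and 0 passed (limma), 3 lay above 0 and 4 below, with a median of -0.026. Those of smallest p were miR-183, of the sensory and endocrine miR-183 cluster (-0.15), and miR-192, an endodermal miRNA (0.18). The skin and squamous miRNAs miR-203 and miR-205 were not detected on the first design, and with miR-215 they were not tested. Of 10 mesenchymal miRNAs listed, 8 were tested, 0 passed, 7 lay above 0 and the median was 0.15. For all 152 tested, 108 lay above 0, with a median of 0.066. The mesenchymal miRNAs of smallest p were miR-10b at 0.41 and miR-100 at 0.26. Among those kept as connective-tissue markers, miR-143 differed by 0.13, miR-199a-3p by 0.17 and miR-214 by -0.13. The other such markers, miR-145 and miR-199a-5p, were not tested. The summed signal of the 10 ran from 2992 to 3740.0 in Control and from 3211 to 3799.7 in HFD on the first design. On Control 602 the list's miR-22, miR-21 and miR-125b-5p read 998, 882 and 572, miR-143 read 408 and miR-145 the floor. Endothelial miRNAs had 2 of 3 tested and 0 passed, with miR-10a-5p at 0.26 and miR-126 at 0.10. In bulk islets, fewer cells of a type and less RNA per cell cannot be told apart.

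Of the leukocyte miRNAs, 3 of 5 were tested and 0 passed after adjustment, but miR-150, a miRNA of mature lymphocytes, was the cell-type marker with the largest difference. It read 13.8, 11.7, 13.1 and 11.3 on Control 602, 613, 615 and 639, at or near the floor, and 229.7 on HFD 603, 27.6 on HFD 607, 14.7 on HFD 644 and 78.2 on HFD 653, where the software did not call it detected. The groups did not overlap on the first design, and the second gave 16.8 and 15.3 in Control and 26.6 in HFD. The difference was 1.73 ± 0.61 (log2, SE; limma p = 0.0180, adjusted 0.987; exact permutation p = 0.00476, adjusted 0.724). Of the 3 tested, 2 lay above 0 and 1 below: miR-223, the other of smallest p, differed by 0.14 and miR-146a by -0.082. On HFD 653 miR-146a read at the floor of 11.3. Among first-design arrays, the untested miR-142-3p read 112 on HFD 603 and the floor on the others. Every second-design array detected miR-142-3p, with 71.8 on Control 635, 44.1 on Control 652 and 85.9 on HFD 640. The summed signal of the list ran from 71.0 to 80.2 in Control and from 68.7 to 418 in HFD on the first design. The 418 was that of HFD 603. The part of these leukocyte miRNAs in the values of the family was not tested.

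Of 4 acinar miRNAs listed, 2 were carried by both designs. Only miR-216a was tested, and it did not pass (0.68 ± 0.84, log2, SE). The other, miR-217, read at the floor of 11.3 on the 8 arrays of the first design, so whether it followed miR-216a there cannot be told. On the second design miR-217 read 130 and 94.9 in Control and 114 in HFD. The tested miR-216a, made by the enzyme-secreting cells around islets, varied far more than the family. It ran from 23.0 to 679 in Control and from 117 to 732 in HFD on the first design. Its r with members ran from -0.38 (miR-200a) to 0.63 (miR-200b; exact permutation p = 0.0943, adjusted 0.590), the last falling to -0.37 without Control 639 and Control 602. With miR-375, the relation of miR-200b was r = -0.65 (exact permutation p = 0.0775, adjusted 0.590), and 0.011 without the same 2 arrays. Those relations thus rest on these samples.

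Outside the family, the miRNAs most like the mean of the chromosome 5 cluster over the 8 arrays were miR-154 (r = 0.73), miR-182 (0.68), miR-125a-5p (0.66) and miR-99b (0.66), among 79 candidates with a median of 0.24. For the chromosome 4 mean they were miR-23b (0.93), miR-99b (0.88), miR-96 (0.85) and miR-127 (0.84), with a median of 0.42. Only miR-99b was among the 4 of both. These r were not centred on slide columns. Of the sum of squares, 53.8% of that of the chromosome 5 mean and 61.5% of that of the chromosome 4 mean lay between columns. Both shares lay below the upper quartile of 84 single miRNAs, which was 74.1%, with a median of 45.2%. The part of slide position in these likenesses was not tested.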

How the data were processed

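Per the labels' protocols, 100 ng of total RNA per sample was labelled with Cy3 for 1-colour Agilent arrays. The deposited spot intensities are background-subtracted but carry no normalisation across arrays, per the file headers (Feature Extraction 10.5.1.1 and 10.7.3.1). The authors' deposited log2 tables, 1 per design, served as an alternative; per the submitters' processing notes, tools included Partek and RMA, with roles not given in the sources used here. Spots without an outlier flag were averaged per probe and probes summed per miRNA. Arrays were scaled as described, with a floor at the 1st percentile of detected values (11.3), then log2 was taken. Differences between diets were fitted blocked by array design (limma 3.58.1, R 4.3.3) at a threshold of 0.05. The fit was checked on simulated data with added differences of 2 on the log2 scale. That check does not cover differences as small as those of the members. The number of arrays limits the precision. Alternatives changed scaling, floor, spot and probe summary, background, filter, blocks and arrays. The normexp alternative used the median spot signal. Named miRNAs were the 5 members, 2 of smallest p per marker list, the 4 most like each cluster mean and some further miRNAs given for comparison. Members and lists were chosen with earlier results of these data known.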

Additional observations from a re-analysis of the deposited data

Results flagged for a closer look

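Among 22 groups of 4 arrays checked for a value far from the other 3 (gap over range above Dixon's 95% critical value, which chance passes in about 1.1 of them), 4 stood out on the first design. For miR-200b, HFD 653 lay above the other HFD arrays (gap over range 0.907). For miR-200c, Control 615 lay above the other Control arrays (0.934). For the mesenchymal miRNA miR-143, Control 639 lay below the other Control arrays (0.940). In the seed contrast, HFD 653 lay above the other HFD arrays (0.857). The second design also carries star strands of 4 members, miR-200a*, miR-200b*, miR-200c* and miR-141*, which the comparisons do not use. Of these, miR-141* was detected on HFD 640 with a total signal of 14.8 (software error 4.39) and not on Control 635 or 652, and the others were detected on none of the 3 arrays. With 1 HFD array this difference has no replicate check.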

How the results depend on the processing

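No alternative brought a member past the threshold, and the members' differences lie near 0, so their signs turned often. No paired analysis was possible because the sample numbers are not shared between the diets. Scaling moved the median difference of all miRNAs by -0.21 (75th percentile over all shared names), -0.15 (median or quantile normalisation) and 0.09 (no scaling), and 0 members lay above 0 with the first 2 and 5 with no scaling. With quantile normalisation 1 did, and the members' median moved less than that of all miRNAs, from 0.0083 to -0.024. With the 75th percentile over all names, miR-200b read -0.22, miR-429 -0.17, miR-200c -0.22, miR-141 -0.17 and the mean of the family -0.21. With median scaling these were -0.15, -0.10, -0.14, -0.10 and -0.14. Quantile normalisation gave -0.082 for miR-200b, -0.0058 for miR-429 and -0.024 for miR-200c. Unscaled, miR-200a read 0.019 and 1 miRNA, no member, was called. The authors' deposited log2 tables gave 0.046 for miR-200a, normexp -0.0036 for miR-200c, and medians over spots and median polish -0.0077 and -0.0048 for miR-200b. The first design alone gave -0.045 for miR-200c and -0.044 for miR-141. With slide columns as a block miR-200a read 0.11 and the family mean 0.14. Without Control 602 and HFD 653, miR-429 read -0.020, miR-200c -0.029 and miR-141 -0.0068. Leaving out 1 array at a time gave -0.13 to -0.0064 for miR-200a, -0.060 to 0.030 for miR-200b, -0.00073 to 0.11 for miR-429, -0.045 to 0.059 for miR-200c and -0.050 to 0.15 for miR-141.

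Correlations depended on the scaling. The median r over pairs of the same cluster, different clusters, the same seed and different seeds was 0.86, 0.92, 0.92 and 0.86 unscaled, and 0.78, 0.86, 0.86 and 0.78 with the 75th percentile over all names; some pairs passed adjustment under these 2 settings alone. Over pairs of the same cluster it was 0.52 with median scaling, -0.17 with quantile normalisation and 0.49 without Control 602 and HFD 653, and over pairs of different seeds -0.41 with quantile normalisation and 0.68 without those arrays. With median polish, pairs of the same seed (0.59) no longer exceeded those of different seeds (0.64), while the latter fell to 0.015 with spot medians and -0.029 with outlier spots kept. The pair miR-200a and miR-200b turned positive unscaled (0.85), with the 75th percentile over all names (0.78), median scaling (0.53), spot medians (0.044), median polish (0.22) and without those arrays (0.36). The pair miR-200b and miR-141 did so in the same order at 0.78, 0.58 and 0.015, with median polish at 0.12 and without those arrays at 0.76. The pair miR-429 and miR-141 turned negative with median scaling (-0.035), outlier spots kept (-0.036) and spot medians (-0.014), and miR-200a and miR-429 with the last 2 settings (-0.022 and -0.11). Quantile normalisation gave -0.32 for miR-200a and miR-200c and -0.52 for miR-200c and miR-141. With 1 array left out, r ran from -0.37 to 0.15 for miR-200a and miR-200b, -0.023 to 0.48 for miR-200b and miR-429, -0.36 to 0.35 for miR-200b and miR-141, and -0.030 to 0.62 for miR-429 and miR-141. The cause of these moves was not tested. The share of the seed contrast between slide columns was 85.1% with quantile normalisation, 96.2% with spot medians, 98.9% with normexp, 99.3% with outlier spots kept and 99.6% with median polish; scaling an array by a factor cannot change it. The slide column, spot medians, outlier spots and median polish for correlations, and the removal of Control 602 and HFD 653, were chosen after the data were seen.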
